A study of Homo sapiens with 6 samples.

Results

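Heat shock proteins and J-domain proteins are the molecular chaperones that fold, refold and hand over other proteins. HSP70 proteins bind exposed stretches of unfolded chains in a cycle driven by ATP. J-domain proteins, whose genes are named DNAJ, bring clients to HSP70 and start its ATP hydrolysis, and the HSP110 proteins exchange the nucleotide. HSP90 proteins act later on kinases and hormone receptors, the HSP60 chaperonin with its HSP10 lid folds proteins inside mitochondria, and small heat shock proteins hold unfolded clients. Some members are made at a steady level in every cell, while others are switched on by heat through the transcription factor HSF1, or by unfolded proteins in the endoplasmic reticulum (ER). Histone deacetylase 6, a cytosolic enzyme that several histone deacetylase inhibitors also block, is known to deacetylate HSP90.

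The members were the protein-coding genes in GENCODE release 29 whose symbols begin with HSP90, with HSPA or HSPB and a number, or with DNAJ, together with HSPD1, HSPE1 and HSPH1. The rule took 69 of the 32364 genes in the deposited table, and it used no measured value. HSPA14 stands for 2 of them, because 2 overlapping gene models carry that symbol. By family there were 28 DNAJC, 12 DNAJB and 4 DNAJA genes, 12 HSP70, 3 HSP110 and 3 HSP90 genes, 5 small heat shock proteins and 2 chaperonin genes. The members were then classed from general knowledge, with earlier results of these data known. Of them, 10 were classed as heat-inducible, 7 as ER stress-inducible, 18 as constitutive and 34 as none of these. The same was done for the main place of the protein, with 35 in cytosol or nucleus, 13 in the ER, 8 in mitochondria, 5 on vesicles or clathrin coats and 8 elsewhere or not assigned.

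mRNA was sequenced from Kasumi-1 cells, an established line of acute myeloid leukemia with the t(8;21) translocation. A total of 3 control libraries came from cells given the solvent DMSO, and 3 came from cells treated for 48 h with I13 at 0.5 µM. I13 is a histone deacetylase inhibitor built on indole-3-butyric acid. The study describes its experiments as repeated and independent, while the labels do not tie each library to a culture of its own, so p-values measure the spread between these libraries.

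The values are FPKM, a count of sequenced fragments corrected for the exon length of the gene and the depth of the library. Fragments recovered from them gave depths of 16566742 to 17221345 per control library and 15281052 to 16682550 per I13 library. All 8 Kasumi-1 markers examined (MPO, KIT, CD34, RUNX1T1, RUNX1, SPI1, CD33 and ELANE) were expressed, with a summed FPKM of 14425 to 15521 in control and 13029 to 14815 in I13 libraries. The summed FPKM of T cell markers stayed at or below 0.438, that of erythroid markers at or below 0.201, and the fibroblast genes COL1A1, COL1A2 and LUM were at 0. B cell markers summed to 1.93 to 2.56 in control and 2.80 to 3.48 in I13 libraries, and of the epithelial markers EPCAM was at 20.8 to 26.5 FPKM over the 6 libraries and KRT8 at 0 in all but I13 replicate 3 (0.019 FPKM). Control replicate 3 and I13 replicate 2 stood apart from the other 4 libraries on the first principal component, which held 43.3% of the variance of 4133 genes. The groups separated on the second, which held 20.5%.

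First, the level of each chaperone gene was examined. The members together took 1.07% to 1.16% of all FPKM in a library. Of the 69, 50 had a mean of at least 1 FPKM, 28 of at least 10 and 7 of at least 100. HSP90AB1, the constitutive cytosolic HSP90, was the most abundant at 882, 893 and 886 FPKM in control and 896, 894 and 887 FPKM in I13 libraries. All 6 values lay within a narrow band and the groups overlapped. HSPA8, the constitutive cytosolic HSP70, followed at 485 to 543 FPKM. HSPA5 (BiP), the HSP70 of the ER, was at 325 to 366 FPKM, and HSP90AA1, the heat-inducible HSP90, at 246 to 303 FPKM.

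Next in order came HSPD1, the mitochondrial HSP60, at 183 to 219 FPKM and HSP90B1 (GRP94), the HSP90 of the ER, at 180 to 215 FPKM. The ranges of these 2 genes overlapped almost entirely. HSPB1 (HSP27), a small heat shock protein, was at 128 to 142 FPKM, and HSPA9, the mitochondrial HSP70, at 88.7 to 95.5 FPKM. The J-domain proteins DNAJA1 and DNAJA2, general partners of cytosolic HSP70, had overlapping ranges of 72.1 to 87.1 and 66.8 to 74.7 FPKM. By family, HSP90 genes held 41.0% to 42.4% of the members' summed FPKM, HSP70 genes 30.02% to 32.1%, and the 28 DNAJC genes 6.75% to 7.06%.

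**Figure D1:**
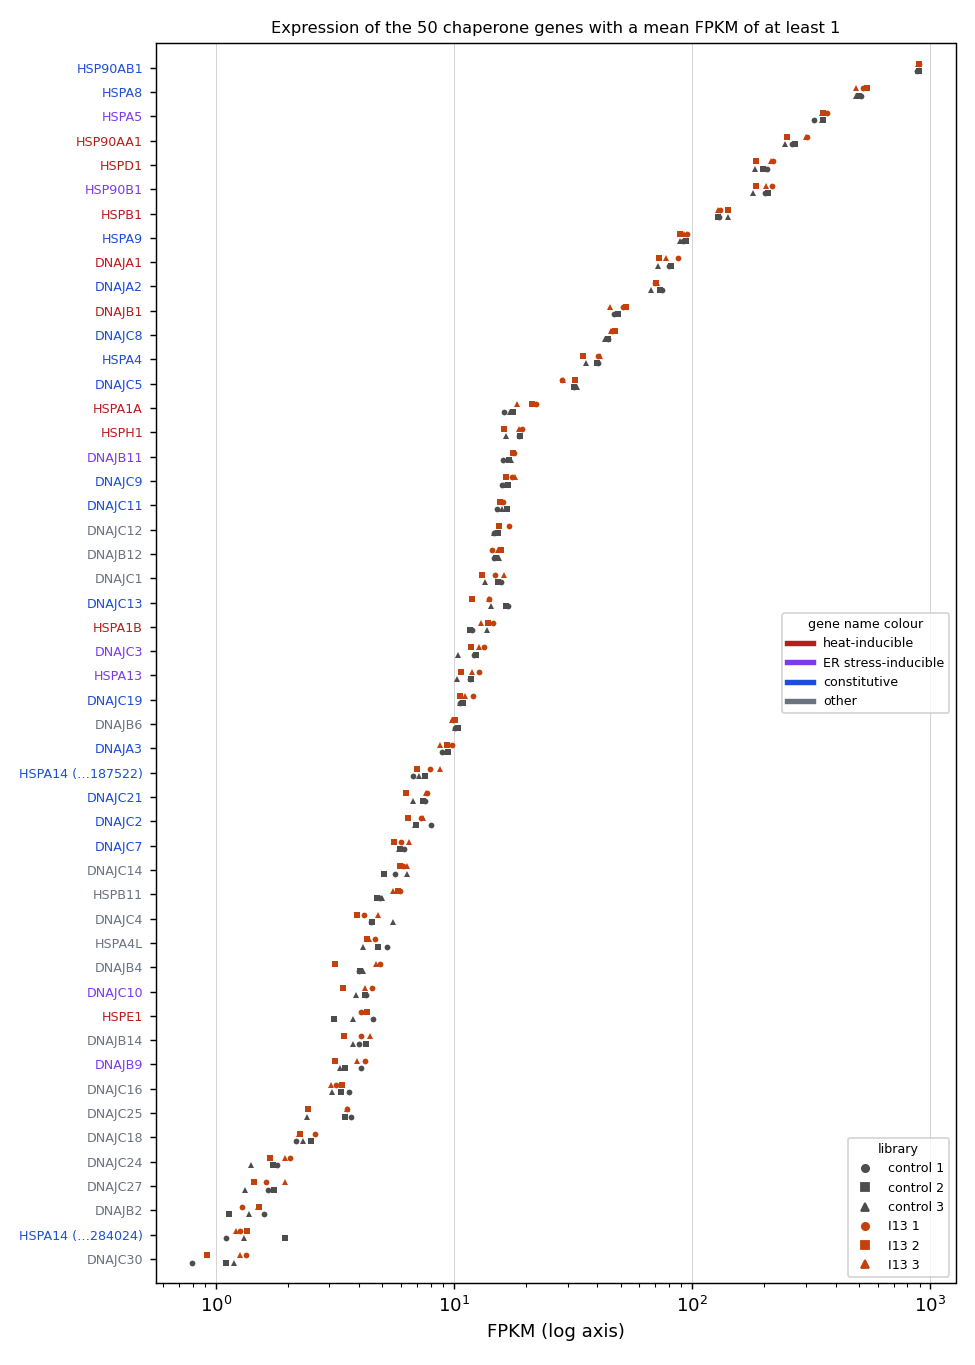
FPKM (x axis, log scale) of the 50 chaperone genes with a mean of at least 1 FPKM, ordered by mean, with 1 point per library, grey for control and orange for I13. HSP90AB1 is at the top at 882 to 896 FPKM, and for nearly every gene the control and I13 points lie close together beside the spread between genes.

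The remaining 9 members fell below the minimum mean of 0.1 FPKM and were not tested. They were DNAJB7, DNAJB8, DNAJC5B, DNAJC5G, DNAJC6, DNAJC15, DNAJC22, HSPB6 and HSPB7, with 0 to 18 fragments over all 6 libraries and at most 5 in a library. DNAJB8 and DNAJC15 had 0 fragments, and a count of 0 allows up to 3 fragments per library.

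The comparison of I13 with control asked whether the histone deacetylase inhibitor was accompanied by a heat shock or unfolded protein pattern in chaperone genes. In the limma fit, 0 of the 60 tested members passed an adjusted p of 0.05, and 0% of the 18726 genes tested did. The smallest adjusted p was 0.859 among the members and 0.275 among all genes. At an unadjusted p under 0.05, 2 members were higher with I13 (2.55% of all genes) and 1 was lower (2.59% of all genes). These counts are near the share that all genes gave. On the log2(FPKM + 0.1) scale of this fit, every member stayed under an absolute log2 fold change of 0.58 (about 1.5-fold). The study used that threshold for differential expression, but the added 0.1 shrinks changes of scarce genes. DNAJC28 had the largest value, 0.54, on 4 to 10 fragments per library. It was at 0.117, 0.164 and 0.0972 FPKM in control and 0.253, 0.217 and 0.211 FPKM in I13 libraries, which is a larger change without the added 0.1.

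The data bounded the size of a change for most members. The 95% interval of the log2 fold change lay within 0.58 of 0 for 48 of the 60 tested members, and for 48 of the 50 with a mean of at least 1 FPKM. For genes of at least 10 FPKM the interval reached at most 0.22 to either side of the estimate. The intervals of scarce genes were wider, up to 1.44 to either side, and changes of the study's threshold size were not detectable there. In RNA from bulk cells, fewer cells that express a gene and less RNA per cell cannot be told apart.

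**Figure D2:**
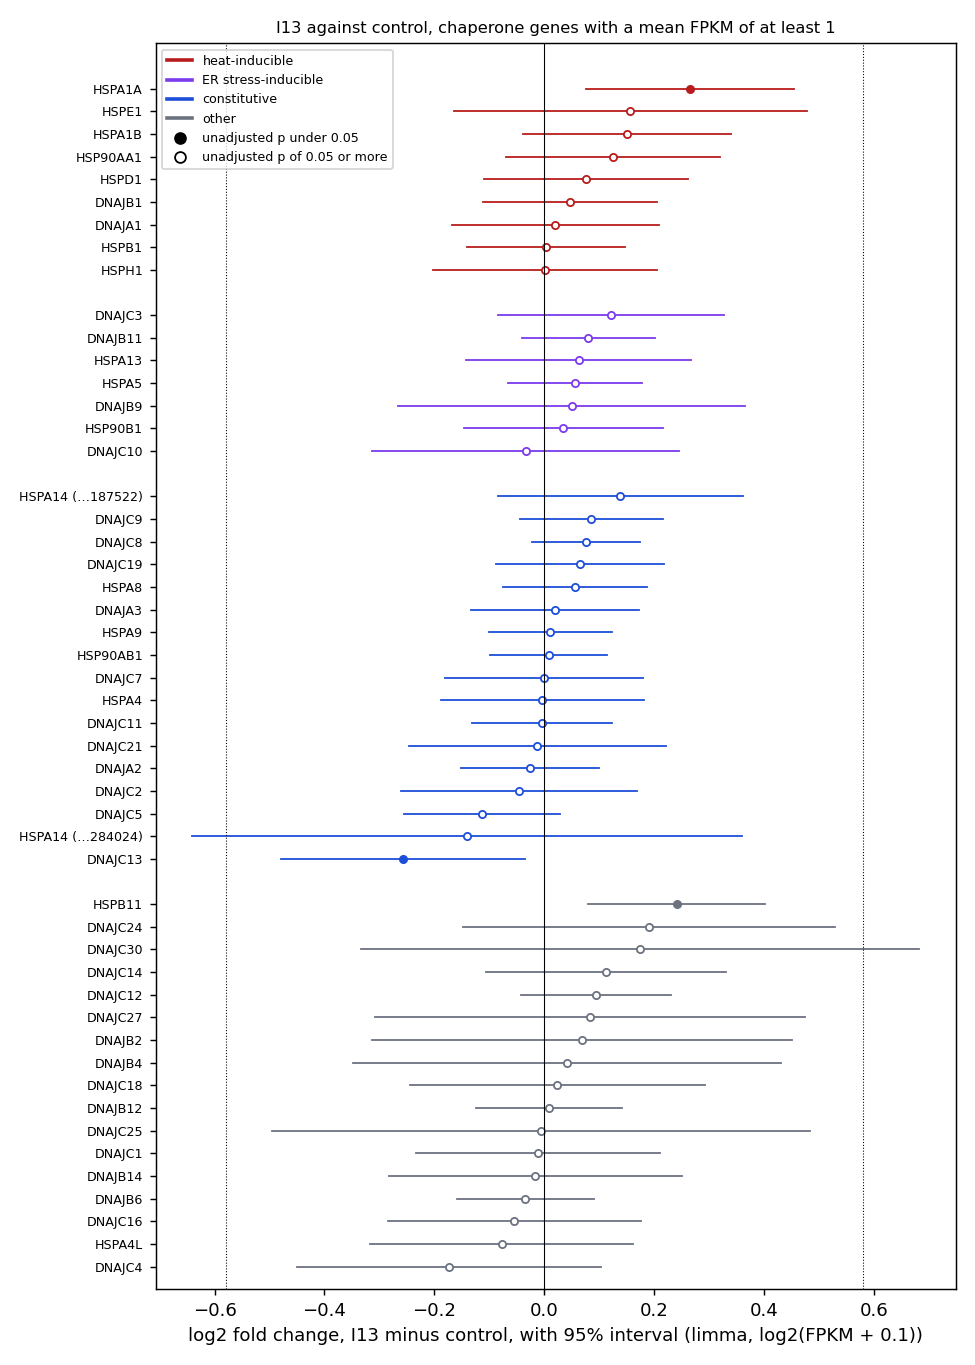
Log2 fold change of I13 minus control (x axis, points) with its 95% interval (lines) from limma for the 50 chaperone genes with a mean of at least 1 FPKM, grouped by class; filled points have an unadjusted p under 0.05, and dotted lines mark 0.58 on either side of 0. HSPA1A and HSPB11 lie above 0 and DNAJC13 below 0 with intervals that leave out 0, and all 50 points lie between the dotted lines.

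The heat-inducible members were described next. HSPA1A, the main stress-inducible HSP70, was at 16.2, 17.7 and 17.2 FPKM in control and 22.1, 21.2 and 18.3 FPKM in I13 libraries. All I13 values lay above all control values, the lowest by a small margin. The fold change was 1.20, or 0.27 on the log2 scale (SE 0.080, 95% interval 0.076 to 0.45), with an unadjusted p of 0.013 and an adjusted p of 0.875 in limma. The unadjusted p rose above 0.05 when control replicate 1 or I13 replicate 1 was left out. Groups that do not overlap in this direction were found for 7 of the 60 members, against 4.88% of all genes. They were HSPA1A, HSPB11, DNAJB5, DNAJB11, DNAJC8, DNAJC12 and DNAJC28. An exact permutation test of 3 against 3 libraries cannot give a two-sided p below 0.1, which is what each of these 7 genes had.

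HSPA1B, the neighbouring gene that encodes nearly the same protein, was at 11.9, 11.7 and 13.7 FPKM in control and 14.5, 13.9 and 12.9 FPKM in I13 libraries. Control replicate 3 lay above I13 replicate 3, so the groups overlapped, and the log2 fold change was 0.15 (95% interval -0.039 to 0.34). HSPA1A (chromosome 6, 31815464 to 31817946, plus strand) and HSPA1B (chromosome 6, 31827735 to 31830255, plus strand; GRCh38) share 69.3% and 70.1% of their 75-base stretches of exon sequence with each other. Reads in shared sequence cannot be assigned to either gene with certainty, so the split between the pair is uncertain. In GENCODE, 36.5% of the exon bases of HSPA1B also lie in the gene model AL671762.1, for which no deposited values were found.

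The ratio of constitutive HSPA8 to the sum of HSPA1A and HSPA1B does not depend on how counted reads were divided between the pair. Shared reads left uncounted would raise it, and their handling is not given in the sources used here. This ratio was 18.1, 17.0 and 15.7 in control and 14.3, 15.5 and 15.6 in I13 libraries. All I13 ratios lay below all control ratios, although 15.6 and 15.7 nearly touch, and the two-sided exact permutation p was 0.1, the smallest possible. The ratio of HSP90AA1 to HSP90AB1, the heat-inducible to the constitutive cytosolic HSP90, was 0.299, 0.302 and 0.278 in control and 0.338, 0.279 and 0.337 in I13 libraries, with overlapping groups (exact permutation p = 0.3).

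HSPA6, a strictly heat-inducible HSP70 that unstressed cells hardly express, was at 0.147, 0.123 and 0 FPKM in control and 0.265, 0.101 and 0.0276 FPKM in I13 libraries. These values rest on 0 to 10 fragments per library, and the groups overlapped. In addition, 35.0% of its 75-base exon stretches also occur in the pseudogene HSPA7.

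The promoters of HSPA1A and HSPA6 are shown because both are textbook heat shock genes yet stood far apart in level, with that of HSPA5 as the ER counterpart. They are the bases before the RefSeq transcription start (GRCh38.p14, plus strand for HSPA1A and HSPA6, minus strand for HSPA5), written 5′ to 3′ on the gene's strand, and the HSPA1A stretch stops 80 bases before that start, where the GENCODE gene begins. Capitals mark matches to the HSF1-type pairs GAANNTTC and TTCNNGAA in HSPA1A and HSPA6, and to the ER stress response element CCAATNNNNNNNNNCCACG in HSPA5.
HSPA1A, chr6:31815293-31815463: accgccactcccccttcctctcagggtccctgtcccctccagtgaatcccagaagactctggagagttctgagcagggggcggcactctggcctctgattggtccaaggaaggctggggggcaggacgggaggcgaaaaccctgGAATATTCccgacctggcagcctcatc
HSPA6, chr1:161524290-161524539: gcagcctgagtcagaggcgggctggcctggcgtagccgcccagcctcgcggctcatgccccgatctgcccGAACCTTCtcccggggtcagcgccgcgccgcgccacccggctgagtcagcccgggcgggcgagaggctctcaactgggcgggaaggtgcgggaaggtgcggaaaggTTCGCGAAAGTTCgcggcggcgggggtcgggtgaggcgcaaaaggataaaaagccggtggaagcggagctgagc
HSPA5, chr9:125241344-125241593: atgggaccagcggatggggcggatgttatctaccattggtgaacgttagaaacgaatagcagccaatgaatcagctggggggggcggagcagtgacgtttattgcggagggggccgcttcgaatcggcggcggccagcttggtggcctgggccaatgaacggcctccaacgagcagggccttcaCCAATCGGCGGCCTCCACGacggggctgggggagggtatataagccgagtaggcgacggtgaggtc

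RefSeq promoters were found for 61 of the 68 member symbols, and 250 bases before the start were searched on both strands. The pair GAANNTTC occurred in 10 of the 61 members (16.4%) and in 5.78% of 35116 promoters of the same length. By class, it occurred in 5 of the 10 heat-inducible members (DNAJA1, HSPA1A, HSPA1B, HSPA6 and HSPB1), in 1 of 16 constitutive members (HSPA8), in 0 of 7 ER stress-inducible members and in 4 of 28 others. The pair TTCNNGAA occurred in 5 of the 61 members (8.2%) and in 6.62% of all promoters, with 1 of the 10 heat-inducible members (HSPA6), 1 of 16 constitutive members (HSPA8) and 3 of 28 others among them. The element of 3 units, GAANNTTCNNGAA, which contains both pairs, occurred in HSPA6, HSPA8 and DNAJB6, and in 0.441% of all promoters. The ER stress response element occurred in HSPA5 and HSP90B1, and in 0.074% of all promoters. The 10 members with GAANNTTC do not hold 10 separate sites. HSPA1A and HSPA1L, on opposite strands, have GAATATTC at equal distances from the same CCAAT and TATA matches, so a single site was counted for both. HSPA1B also has GAATATTC, at nearly the same distance from its start as HSPA1A. A match is a description of letters and not of a bound site.

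The other heat-inducible members had intervals that include 0. HSP90AA1 was at 263, 269 and 246 FPKM in control and 303, 250 and 299 FPKM in I13 libraries. Replicates 1 and 3 of the I13 group were the highest of the 6, while I13 replicate 2 lay among the controls. Its log2 fold change was 0.13 (95% interval -0.070 to 0.32). DNAJB1 (HSP40), the classical heat-induced J-domain protein, was at 47.1, 48.7 and 48.4 FPKM in control and 51.4, 52.9 and 44.96 FPKM in I13 libraries, so that 1 I13 library lay below every control.

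HSPH1 (HSP105), a nucleotide exchange factor of HSP70, was at 18.7, 18.9 and 16.5 FPKM in control and 19.3, 16.2 and 18.7 FPKM in I13 libraries. DNAJA1 had a log2 fold change of 0.020 (95% interval -0.17 to 0.21) and HSPB1 of 0.0035 (95% interval -0.14 to 0.15). HSPD1 was at 207, 197 and 183 FPKM in control and 219, 185 and 215 FPKM in I13 libraries, with a log2 fold change of 0.076 (95% interval -0.11 to 0.26).

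HSPE1 (HSP10), the lid of the HSPD1 chaperonin, was measured at only 4.55, 3.12 and 3.76 FPKM in control and 4.07, 4.31 and 4.27 FPKM in I13 libraries. The ratio of HSPD1 to HSPE1 was 43.1 to 63.2, although both proteins work in the same complex. HSPE1 had 106 to 155 fragments per library on 1977 exon bases, and HSPD1 had 12837 to 15107 on 4245, so the gap is already in the fragments. Of the 351 coding bases of HSPE1, 168 (47.9%) also lie in exons of the readthrough gene HSPE1-MOB4. No deposited values were found for that readthrough gene. The part of this overlap in the low value was not tested.

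All 10 heat-inducible members had a log2 fold change above 0, with a median of 0.10, against 0.0045 over the 18 constitutive members, 0.038 over the 60 tested members and 0.0058 over all 18726 genes. Of those genes, 51.8% lay above 0. So did 40 of the 60 tested members (66.7%), 6 of the 7 ER stress-inducible members and 10 of the 18 constitutive members. The estimates of HSPB1 and HSPH1 were close to 0 and changed sign under median scaling, quantile normalization and the fragment-based fit. With a library left out, DNAJA1 ranged from -0.052 to 0.081. HSPA6, which rests on 0 to 10 fragments per library, ranged from -0.15 to 0.62. HSPA1A and HSPA1B share much of their sequence, so the 10 signs are not independent. The class was also drawn up with earlier results of these data known. Without I13 replicate 1 the median of the class was 0.026. In summed FPKM the class held 23.6% to 24.1% of the members' total in control and 23.4% to 25.1% in I13 libraries, which overlap.

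Among the constitutive counterparts, HSPA8 was at 509, 499 and 485 FPKM in control and 523, 543 and 487 FPKM in I13 libraries. Its log2 fold change was 0.056 (95% interval -0.075 to 0.19). HSP90AB1 had a log2 fold change of 0.0088 (95% interval -0.098 to 0.11), the constitutive HSP110 gene HSPA4 of -0.0030 (95% interval -0.19 to 0.18) and DNAJA2 of -0.025 (95% interval -0.15 to 0.10). DNAJC8, a J-domain protein linked to splicing, was at 44.4, 44.2 and 43.1 FPKM in control and 46.1, 47.3 and 45.4 FPKM in I13 libraries, with no overlap and a log2 fold change of 0.076 (95% interval -0.022 to 0.17). Of the 18 constitutive members, 10 lay above 0 and 8 below.

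**Figure D3:**
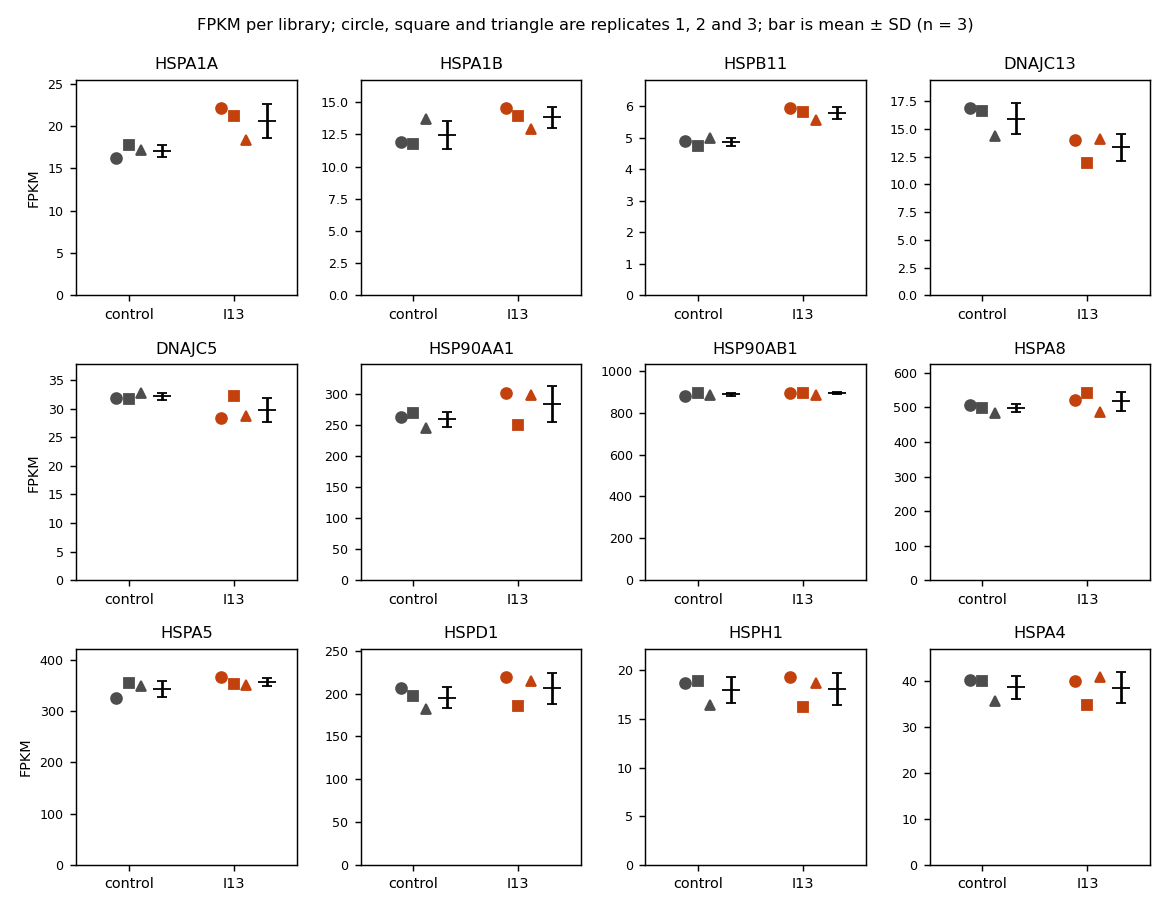
FPKM (y axis, from 0) in each library for 12 chaperone genes; circles, squares and triangles are replicates 1, 2 and 3, and bars are mean ± SD (n = 3). HSPA1A and HSPB11 lie higher in all 3 I13 libraries and DNAJC13 lower, while HSP90AB1 spans 882 to 896 FPKM over all 6.

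In the ER, 7 members were classed as stress-inducible. HSPA5 was at 325, 355 and 350 FPKM in control and 366, 354 and 351 FPKM in I13 libraries. Control replicate 1 was the lowest and I13 replicate 1 the highest, and the other 4 lay together. Its log2 fold change was 0.056 (95% interval -0.065 to 0.18). HSP90B1 had a log2 fold change of 0.035 (95% interval -0.15 to 0.22). DNAJB11 (ERdj3), a partner of HSPA5, was at 16.05, 16.9 and 17.4 FPKM in control and 17.9, 17.6 and 17.8 FPKM in I13 libraries, a difference of 0.080 (95% interval -0.041 to 0.20) with no overlap.

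DNAJC3 (P58IPK), which binds unfolded chains in the ER, had a log2 fold change of 0.12 (95% interval -0.084 to 0.33). DNAJC10 (ERdj5), a reductase that assists degradation of misfolded proteins, had one of -0.033 (95% interval -0.31 to 0.25). The median of the 7 ER stress-inducible members was 0.056, with 6 above 0 and 0 past the unadjusted p. Over all 13 ER members the median was 0.035, with 9 above 0, and the members classed to this compartment held 19.3% to 20.1% of the members' summed FPKM in every library.

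In mitochondria, 7 of the 8 members were tested, with a median log2 fold change of 0.066, 6 above 0 and 0 past the unadjusted p. HSPA9 (mortalin), which pulls proteins through the inner membrane, was at 91.3, 94.5 and 88.7 FPKM in control and 95.5, 89.0 and 92.2 FPKM in I13 libraries. Its log2 fold change was 0.011 (95% interval -0.10 to 0.12), and the groups overlapped. The 31 tested members of cytosol and nucleus had a median of 0.042, with 21 above 0 and HSPA1A past the unadjusted p.

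Of the 5 vesicle members, 2 were abundant enough to test, and 1 of them was lower at an unadjusted p under 0.05. DNAJC13 (RME-8), a J-domain protein of endosomes that works with HSPA8 on clathrin, was at 16.9, 16.6 and 14.3 FPKM in control and 14.0, 11.9 and 14.0 FPKM in I13 libraries. All I13 values lay below all control values, control replicate 3 by a small margin. The fold change was 0.837, or -0.26 on the log2 scale (SE 0.094, 95% interval -0.48 to -0.035), with an unadjusted p of 0.029 and an adjusted p of 0.947 in limma. The unadjusted p rose above 0.05 when control replicate 1, control replicate 2 or I13 replicate 2 was left out. DNAJC13 was the 1 member with groups that do not overlap in this direction, against 4.64% of all genes. The gene lies on chromosome 3, 132417526 to 132539032, plus strand (GRCh38), and its promoter held none of the 3 heat shock motifs in the 250 bases searched.

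DNAJC5 (cysteine string protein), which guards the release machinery of secretory vesicles, was at 31.9, 31.8 and 32.8 FPKM in control and 28.5, 32.2 and 28.7 FPKM in I13 libraries. Here I13 replicate 2 lay with the controls and the groups overlapped, with a log2 fold change of -0.11 (95% interval -0.25 to 0.029). The summed FPKM of the vesicle class was 48.8, 48.4 and 47.2 in control and 42.5, 44.1 and 42.7 in I13 libraries. That sum was made almost wholly of these 2 genes. The cytosol and nucleus sum also separated, in the other direction, at 2200, 2211 and 2155 in control and 2293, 2239 and 2219 in I13 libraries. Both sums had an exact permutation p of 0.1, the smallest possible. As a share of the members' summed FPKM, the cytosol and nucleus class overlapped, at 67.7% to 68.4% in control and 67.7% to 69.0% in I13 libraries. The vesicle share stayed apart, at 1.48% to 1.51% in control and 1.26% to 1.36% in I13 libraries. The sums of the other compartments overlapped between the groups.

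HSPB11 (IFT25), counted among the small heat shock proteins by name and known as a part of the transport particles of cilia, had the smallest unadjusted p of the members. It was at 4.88, 4.74 and 4.98 FPKM in control and 5.94, 5.82 and 5.56 FPKM in I13 libraries, with every I13 value above every control value. The fold change was 1.18, or 0.24 on the log2 scale (SE 0.068, 95% interval 0.080 to 0.40), with an unadjusted p of 0.0093 and an adjusted p of 0.859 in limma. These values rest on 263 to 314 fragments per library. The gene lies on chromosome 1, 53916574 to 53945929, minus strand (GRCh38).

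The members also varied with the pair of libraries that stood apart. Control replicate 3 and I13 replicate 2 were both below the other 4 libraries for 21 of the 60 tested members (35.0%), against 17% of all genes, and both above them for 4 (6.67%), against 10.3% of all genes. The 21 included all 3 HSP110 genes (HSPA4, HSPA4L and HSPH1), 5 of the 7 ER stress-inducible members and 7 of the 13 ER members, as well as HSP90AA1, HSPD1 and DNAJA1. The 4 in the opposite direction were HSPB1, HSPA1L, DNAJB12 and DNAJC5. HSPA4 shows it plainly, at 35.8 FPKM in control replicate 3 and 34.8 FPKM in I13 replicate 2, against 40.0 to 40.8 FPKM in the other 4. The labels give no reason for this pair.

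**Figure D4:**
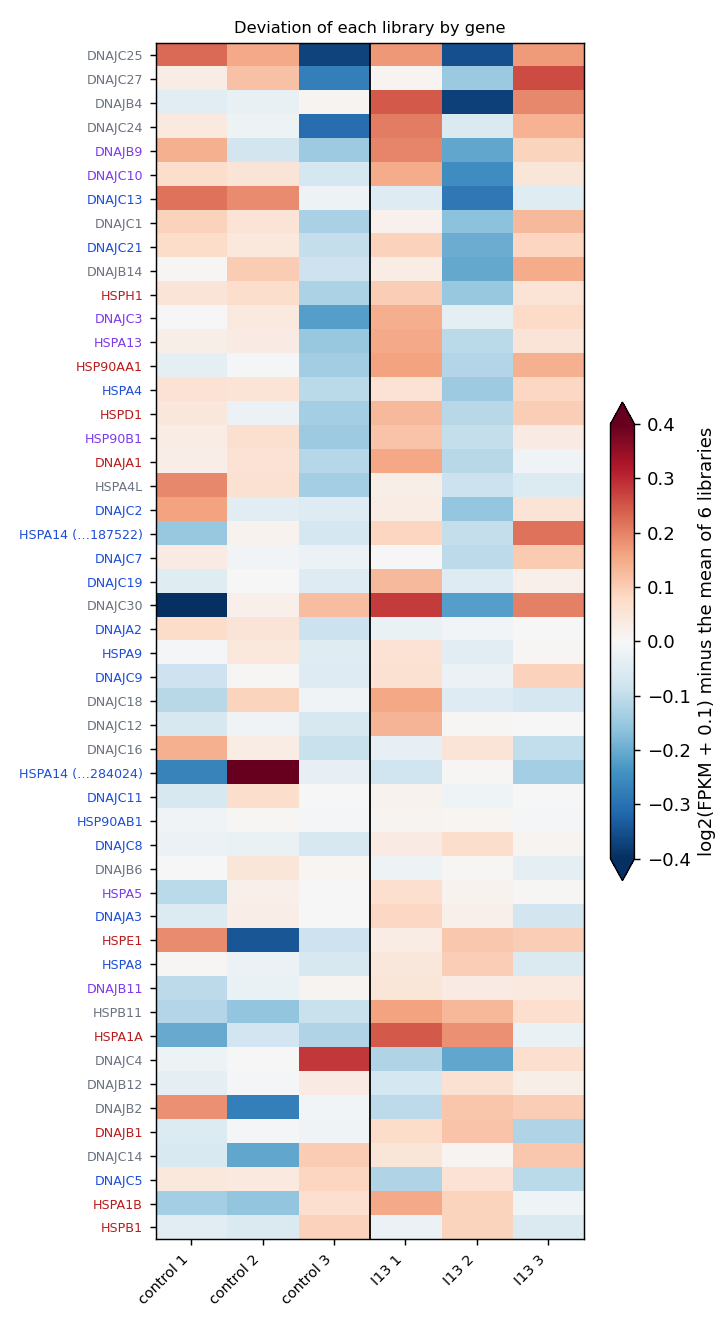
Colour shows log2(FPKM + 0.1) of each library minus the mean of the 6 libraries, for the 50 chaperone genes with a mean of at least 1 FPKM, ordered by the difference between the pair and the other 4 libraries. Control replicate 3 and I13 replicate 2 are blue together in the upper part, which includes HSP90AA1, HSPD1, HSPH1 and HSPA4, while HSPA1A and HSPB11 differ between the groups.

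Because the pair holds 1 library of each group, each difference was also computed within it and within the other 4 libraries. DNAJC13 differed by -0.25 in the 4 libraries and by -0.27 in the pair. For HSPA1A the differences were 0.25 and 0.30, and for HSPB11 they were 0.25 and 0.22. These 3 genes had about the same difference in both. They were picked by an unadjusted p over the same 6 libraries, which favours such agreement, so it is no separate support. HSP90AA1 differed by 0.18 in the 4 libraries and by 0.023 in the pair, and HSPA1B by 0.21 and 0.025. The heat-inducible median was 0.066 in the 4 libraries and 0.024 in the pair.

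A fit on recovered fragments (limma voom) with a term for this pair called 1 of 56 tested members at the adjusted p, DNAJC13 at 0.0019, against 0.688% of 13812 genes tested in that fit. HSPA1A had an adjusted p of 0.0797 and HSP90AA1 of 0.171 there. Without the term, voom gave DNAJC13 an adjusted p of 0.30 and called 0 members, against 0.152% of genes. At an unadjusted p under 0.05, voom with the term gave 4 higher members (4.69% of genes) and 2 lower (5.82% of genes), and limma with the term gave 4 higher (3.7% of genes) and 2 lower (3.92% of genes). In both fits these were HSPA1A, HSPB11, HSP90AA1 and DNAJC3, and DNAJC13 and DNAJC5. Voom without the term gave the same 3 genes as limma on FPKM, 2 higher (2.58% of genes) and 1 lower (3.13% of genes). The term was chosen with the values of these libraries known, so the call depends on a choice made from the data.

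The genes that work with the chaperones were examined in the same fit. HSF1, the main heat shock transcription factor, was at 32.4, 33.7 and 38.3 FPKM in control and 33.0, 34.6 and 31.0 FPKM in I13 libraries, with a log2 fold change of -0.079 (95% interval -0.26 to 0.099). HSF2, a related factor, had a log2 fold change of -0.044 (95% interval -0.25 to 0.16). The lists held 56 tested heat shock factors, co-chaperones, chaperonin and prefoldin subunits and other heat targets. At an unadjusted p under 0.05 in limma, 2 of them were higher with I13 (2.55% of all genes) and 0 lower (2.59% of all genes). These counts are near the share that all genes gave, and 0 passed the adjusted p (0% of all genes). The median log2 fold change of the 56 genes was 0.0055, with 31 above 0 and 25 below.

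CDC37, the adaptor that brings kinases to HSP90, was at 37.8, 39.1 and 40.4 FPKM in control and 44.2, 43.2 and 45.04 FPKM in I13 libraries. The groups did not overlap, as was found in this direction for 4.88% of all genes. The log2 fold change was 0.18 (95% interval 0.068 to 0.28) with an adjusted p of 0.805 in limma. SERPINH1 (HSP47), the collagen chaperone of the ER, was at 20.4 ± 1.24 FPKM in control and 23.2 ± 1.72 FPKM in I13 libraries (SD, n = 3), a log2 fold change of 0.19 with an adjusted p of 0.947 in limma. By list, 0 of 18 HSP70 co-chaperones, 1 of 14 HSP90 co-chaperones, 0 of 14 chaperonin and prefoldin subunits, 0 of 5 tested heat shock factors and 1 of 10 other tested heat targets passed the unadjusted p. BAG3, an HSP70 co-chaperone that is itself a heat target, was at 9.13 ± 0.399 FPKM in control and 9.10 ± 0.394 FPKM in I13 libraries (SD, n = 3).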

How the data were processed

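The authors deposited FPKM values per gene for 6 libraries. The submitters' processing notes name Trimmomatic, HISAT2, Cufflinks, HTSeq and the hg38 build, without versions, and the annotation is not given in the sources used here. Libraries were made with a stranded mRNA kit. FPKM were used as deposited. Fragments were recovered with GENCODE release 29 exon lengths and were whole for 25773 of 27002 genes (95.4%, tolerance 0.01) and 62 members, with 7 members taken from the common step of their values. Of the 75 coding genes that match the member rule in GENCODE release 29, 69 are in the table. The test was limma 3.58.1 in R 4.3.3 on log2(FPKM + 0.1) with a variance trend, two-sided, over genes whose mean FPKM reached 0.1, with Benjamini-Hochberg adjustment; a fold change on this scale understates the change of scarce genes. Alternatives included voom on fragments (mean of at least 10). Exact tests and sequences used Python 3.11.15. Data were also simulated for 3 against 3 libraries, with the same extra spread for every gene and no library pair pattern. There limma called 92 of 200 genes changed 2-fold among 18724 and 19 unchanged genes. On the same data voom called 184 of 200 among 13683 and 11 unchanged genes. The real libraries hold a pair pattern, so these rates need not apply to them. Replicates differed by more than sampling noise in every pair (chi-square per gene 3.07 to 8.24).

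Members, classes and lists were chosen with earlier results of these data known. The named genes are members with an unadjusted p under 0.05 or past the adjusted p in any fit, the heat-inducible class with its constitutive counterparts, the 10 most abundant members, and co-chaperones and regulators with an unadjusted p under 0.05 with HSF1 and HSF2. DNAJB4, DNAJB5, DNAJB11, DNAJC3, DNAJC5, DNAJC8, DNAJC9, DNAJC10, DNAJC12, DNAJC28, HSPA14 and BAG3, and the members of the library pair pattern, were named after their values were seen.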

Additional observations from a re-analysis of the deposited data

How the results depend on the processing

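With all 6 libraries, the number of members past the adjusted p was 0 in every limma fit and in voom, and 1 (DNAJC13) in voom with the library pair term. At an unadjusted p under 0.05, members higher with I13 numbered 4 without a variance trend (2.41% of all genes), 4 with the pair term (3.7%) and 4 with voom and the pair term (4.69%). Members lower numbered 0 with the replicate block (2.22% of all genes), 0 without a trend (2.36%), 2 with the pair term (3.92%) and 2 with voom and the pair term (5.82%). The heat-inducible median was 0.024 within the library pair.

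With each library left out in turn, 1 to 6 members were higher (2.08% to 3.7% of all genes), 0 to 1 lower (1.88% to 3.22% of all genes) and 0 to 0 past the adjusted p. The member median was 0.0053 to 0.081, the heat-inducible median 0.026 to 0.14 and the constitutive median -0.013 to 0.032. Without I13 replicate 2 the 6 higher members were DNAJB4, DNAJC9, HSP90AA1, HSPA1A, HSPB11 and 1 of the 2 HSPA14 models, 6 of 60 against 3.7% of all genes. HSPB11 kept an unadjusted p under 0.05 in every fit run. HSPA1A passed it in every fit except without control replicate 1 and without I13 replicate 1. DNAJC13 lost it without control replicate 1, control replicate 2 or I13 replicate 2, without a trend and with the replicate block.

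The following signs turned among the members named by rule. Median scaling gave HSPB1 -0.00067 and HSPH1 -0.0027. Quantile normalization gave HSP90AB1 -0.026, HSP90B1 -0.0065, HSPA5 -0.0027, HSPB1 -0.020 and HSPH1 -3.5e-05. Voom gave HSPB1 -0.0012 and HSPH1 -0.0042, and with the pair term -0.0015 and -0.0035. Within the 4 libraries HSPA4 was 0.015 and HSPA6 -0.12. Within the pair DNAJA2 was 0.074, HSPB1 -0.0040 and HSPH1 -0.026. With a library left out, the ranges were -0.052 to 0.081 for DNAJA1, -0.075 to 0.0053 for DNAJA2, -0.028 to 0.092 for HSP90B1, -0.058 to 0.069 for HSPA4, -0.15 to 0.62 for HSPA6, -0.014 to 0.037 for HSPA9, -0.040 to 0.051 for HSPB1 and -0.061 to 0.078 for HSPH1. The cause was not tested.

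Across 4133 genes, the deviations of same-numbered libraries correlated at 0.32, -0.38 and -0.30, so only those numbered 1 deviated together. Control replicate 3 and I13 replicate 2 had the highest correlation (0.51). These values cannot decide whether the numbers pair the samples, because deviations within a group sum to 0 and are not independent. Under the replicate block 0 members passed the adjusted p. Depth limits mainly the 10 tested members with a mean under 1 FPKM.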
